A study of Mus musculus with 12 samples.

Results

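The nuclear genes of oxidative phosphorylation were examined in RNA-seq libraries of mouse cortex after stroke. They were taken as the rows of the count table whose symbol begins with Nduf and a subunit letter and number, Sdha to Sdhd, Uqcr, Cox4 to Cox8 or Atp5, leaving out assembly factors named Ndufaf and pseudogenes named -ps. This took 90 of the 25238 genes in the table. The pattern also took the complex II assembly factors Sdhaf1 to Sdhaf4 and the near-copies Ndufa11b and Ndufb4c, which are not subunits, and it missed the subunits Cyc1 and Ndufab1 and the carrier Cycs (cytochrome c), which are given separately.

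Oxidative phosphorylation makes most of the ATP of a neuron. Complexes I and II pass electrons from NADH and succinate to ubiquinone, complex III passes them on to cytochrome c, and complex IV gives them to oxygen, while complexes I, III and IV pump protons out of the mitochondrial matrix. The ATP synthase lets the protons flow back through its membrane part, Fo, and makes ATP in its head, F1. Most subunits are encoded in the nucleus, are small proteins with short mRNAs, and are made together with a few subunits encoded in mitochondrial DNA, none of which is in the table. Ischemia limits this process for want of oxygen, and the libraries measure RNA and not respiration.

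The study asked how intracellular sigma peptide (ISP) changes gene expression near the infarct. ISP is a membrane-permeable peptide that binds PTPσ, a receptor for chondroitin sulfate proteoglycans. The stroke mice were male C57BL/6J of 10–12 weeks with transient occlusion of the middle cerebral artery (MCAo) for 45 min. The 4 libraries labelled ISP are from stroke mice given 1 μg/g/day of ISP from day 1, and the 4 labelled Veh from stroke mice given vehicle (5% DMSO in saline by the labels, a scrambled peptide by the study's results text). Both were collected at day 14 as micropunches of peri-infarct cortex. A further 4 libraries are labelled control and carry the same tissue label. The treatment note shared by all samples names MCAo with either vehicle or ISP and does not say what applies to these mice, so they are compared under that label only. All are bulk tissue, in which fewer cells of a type and less RNA per cell cannot be told apart.

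The libraries held 17442711 to 29845629 counts. The 90 genes took 1.25% ± 0.08 of the counts in Veh, 1.11% ± 0.04 in ISP and 1.22% ± 0.13 in control (mean ± SD, n = 4 each). Levels are given in CPM, counts scaled to a common library total with TMM factors (trimmed mean of M values), and levels of different genes are compared only as CPM per kb of the principal transcript. In every comparison 84 of the 90 passed the filter on low counts. The complex I subunit Ndufs5 and the near-copy Ndufa11b had 0 counts in every library, the testis isoform Cox8c had a single count in all, and Cox7b2, Cox8b and Ndufb4c were too low to test. The transcript of Ndufs5 shares 46.9% of its length with another annotated gene, BC002163.

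The libraries Veh 6 and ISP 18 stood apart by transcripts of the choroid plexus, the epithelium that makes cerebrospinal fluid. Ttr, the transthyretin that this epithelium secretes, had 38337 counts in Veh 6 and 30986 in ISP 18 and 0 to 18 elsewhere. Kl had 2145 and 1595 counts in the same libraries and 1 to 26 elsewhere. This list was chosen after the values were seen, and the main counts and medians of ISP versus Veh are given with and without these libraries.

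Of the constitutive subunits, Cox8a and Cox4i1 of complex IV and Atp5b of the ATP synthase were the highest per length. Over all 12 libraries Cox8a stood at 809.8 ± 129 CPM per kb, Atp5b at 728 ± 55.2, Cox4i1 at 678 ± 110 and Cox6a1 at 643 ± 110, and these neighbours did not differ beyond their spread. Atp5a1, the partner of the catalytic Atp5b in the F1 head, followed at 356 ± 21.6 CPM per kb. The flavoprotein Sdha of complex II stood at 134 ± 10.1, and Ndufs1, the largest core subunit of complex I, at 52.9 ± 2.88. The isoforms known from muscle, lung or testis were low per length, at 15.8 ± 4.03 for Cox6a2, 3.94 ± 1.28 for Cox7a1 and 2.49 ± 0.57 for Cox4i2.

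The windows before transcription starts are shown for 4 members with an edgeR adjusted p under 0.1 in ISP versus control. Of these, 3 were chosen because they hold a motif before the start, and Ndufc1 because it had the smallest p-value. Genes shown also had RefSeq and GENCODE starts close together, which Ndufa5, with an NRF1 motif in its window, did not. Atp5d, Atp5g1 and Cox5a, also under that threshold, hold none of the motifs, so the windows shown do not represent these members. Windows of 250 bases before to 50 after the RefSeq start (GRCm38.p6) were found for 72 of the 90 members. NRF1 and the ETS factor GABPA are known activators of respiratory genes, and YY1 binds many of their promoters. The NRF1 motif (GCGCA, any base, GCGC) was in 18 of the 72 windows, or 25%, against 4.81% of the 27021 windows of all genes. The ETS motif CCGGAAG was in 19 (26.4%, against 9.17%) and the YY1 motif AAGATGGCG in 6 (8.33%, against 1.48%), each read on both strands. At least 1 of the 3 was in 37 windows, 51.4% against 14.1%. A match is a description of the letters and not a measured binding site. In the 250 bases before the start printed here, capitals mark a motif, of the ETS factors in Cox6b1 and of NRF1 in Ndufa11 and Ndufs6. Ndufc1 has none of the motifs in the 250 bases before its start, and its YY1 motif lies in the bases after it, which are not printed.
Ndufc1, chr3:51408956-51409205, minus strand: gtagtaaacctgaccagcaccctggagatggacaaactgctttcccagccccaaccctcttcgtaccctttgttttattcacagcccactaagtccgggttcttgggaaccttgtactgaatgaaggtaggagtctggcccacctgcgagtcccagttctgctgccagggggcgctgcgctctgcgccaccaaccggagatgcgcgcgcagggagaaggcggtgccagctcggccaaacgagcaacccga
Ndufa11, chr17:56717512-56717761, plus strand: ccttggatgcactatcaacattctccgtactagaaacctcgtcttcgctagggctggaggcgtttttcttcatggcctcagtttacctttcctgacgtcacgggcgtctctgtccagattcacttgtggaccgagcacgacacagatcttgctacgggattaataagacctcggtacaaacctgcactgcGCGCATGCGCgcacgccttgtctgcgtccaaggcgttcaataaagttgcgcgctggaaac
Ndufs6, chr13:73328483-73328732, minus strand: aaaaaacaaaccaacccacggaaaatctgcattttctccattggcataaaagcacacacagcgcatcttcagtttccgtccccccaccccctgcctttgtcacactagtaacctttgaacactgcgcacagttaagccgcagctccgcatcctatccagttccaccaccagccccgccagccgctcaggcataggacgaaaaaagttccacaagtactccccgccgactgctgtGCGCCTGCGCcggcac
Cox6b1, chr7:30626115-30626364, minus strand: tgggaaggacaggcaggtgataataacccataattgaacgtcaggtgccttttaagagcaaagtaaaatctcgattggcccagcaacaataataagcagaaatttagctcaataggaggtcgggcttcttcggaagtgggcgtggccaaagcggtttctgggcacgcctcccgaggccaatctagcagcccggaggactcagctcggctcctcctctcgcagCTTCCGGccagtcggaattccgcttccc

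The direction of every difference between ISP and Veh rests on the library names in the count table. A peptide treatment leaves no targeted gene by which these names could be checked. The paper measured several genes by qRT-PCR in an independent cohort of mice, and their directions were not compared with the count table here. The paper's text gives 217 genes as upregulated in ISP-treated mice, whereas DESeq2 here called 217 genes lower in ISP by these names. The paper's methods also set a minimum log2 fold change, which was not applied here. The paper also names Ndufa13 among the downregulated genes, the direction found here. The direction was not verified otherwise. In ISP compared with Veh, no member passed edgeR's test, and the fold changes of nearly all lay below 0. Of the 84 tested, 80 had a log2 fold change below 0, with a median of -0.21, a ratio of 0.863, against 0.02 for all 15214 genes tested. By edgeR's quasi-likelihood test with Benjamini-Hochberg adjustment, 0 members and 0% of all genes had an adjusted p under 0.1. At an unadjusted p under 0.05, 45 of the 84 members lay lower (53.6%), against 7.47% of all genes tested. DESeq2 called 5 members, all lower (1.35% of the genes it tested were called lower), and limma-voom called 0. The groups did not overlap, ISP lower, for 24 of the 84 members against 4.01% of all genes. By library, the median of the members against the gene's mean over all 12 was -0.07, -0.13, -0.14 and -0.18 in ISP and 0.23, 0.04, 0.07 and -0.05 in Veh, on the log2 scale. All ISP libraries lay below all Veh libraries, with ISP 12 and Veh 10 nearly level and Veh 2 well above the rest of its group. Without Veh 2 the median was -0.16, and DESeq2 called 0 members. In the edgeR run without Veh 2, 20 members had an unadjusted p under 0.05, and the share of all genes is not given here.

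**Figure D1:**
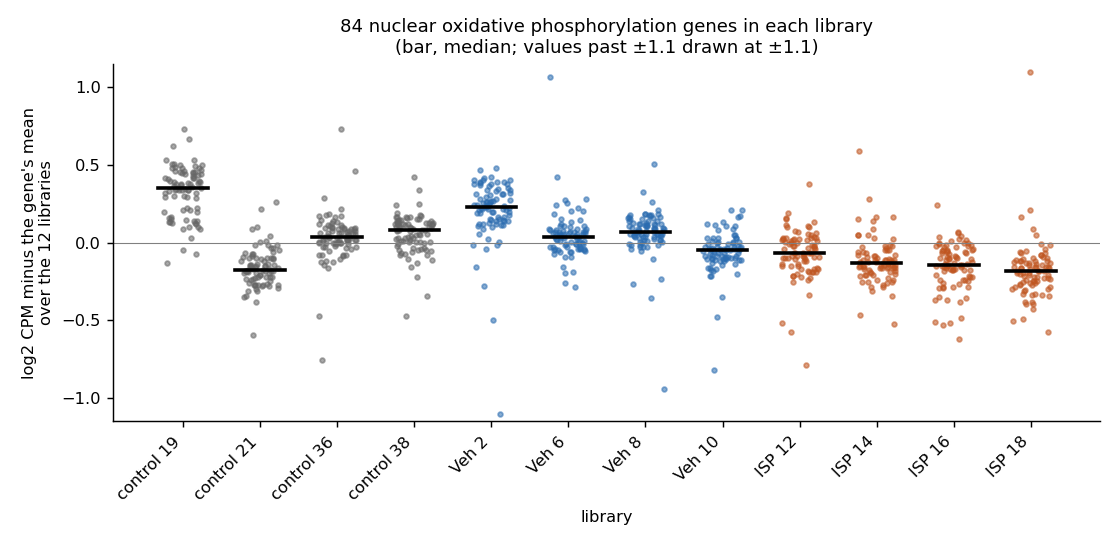
Log2 CPM of the 84 tested members in each library (x axis), minus each gene's mean over the 12 libraries (y axis), with 1 point per gene and a bar at the median. The medians of control 19 (0.35) and Veh 2 (0.23) are the highest, and ISP 18 (-0.18) and control 21 (-0.17) the lowest.

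Complex I is the largest complex of the chain, and its supernumerary subunits gave the lowest single values. All 27 tested accessory subunits had a log2 fold change below 0 in ISP versus Veh, with a median of -0.23, and so did all 7 core subunits, at a median of -0.22, although Ndufs1 was level. Ndufc1, a small membrane subunit, had 41.3, 33.7, 38.5 and 31.1 CPM in Veh 2, 6, 8 and 10 and 26.9, 26.5, 22.9 and 22.6 in ISP 12, 14, 16 and 18. Every ISP library lay below every Veh library, and the log2 fold change was -0.55 (SE 0.11, adjusted p = 0.261 in edgeR and 0.0139 in DESeq2). Ndufa13, also named GRIM-19, had 93.4, 84.1, 96.1 and 73.3 CPM in Veh and 68.1, 65.6, 62.9 and 60.9 in ISP. These groups did not overlap either, at a log2 fold change of -0.43 (SE 0.09, adjusted p = 0.261 in edgeR and 0.0162 in DESeq2). Tssk6, on the opposite strand, shares 29.98% of the exon bases of Ndufa13. The paper names HTSeq with default parameters, and how reads in the shared bases were assigned was not checked. Ndufb5 and Ndufb11, further membrane subunits, did not overlap either, at -0.25 (SE 0.08) and -0.22 (SE 0.07). An annotated near-copy covers 50% of the transcript of Ndufb11.

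The core subunits of complex I, which carry the flavin and the iron-sulfur clusters, ranged from level to the lower values of the complex. Ndufs1 had 136, 147, 147 and 134 CPM in Veh and 150.3, 145, 139 and 129 in ISP. These ranges overlapped almost fully, with a log2 fold change of -0.00 (SE 0.07). Ndufv1, which binds NADH, differed by -0.22 (SE 0.09), Ndufs8 by -0.31 (SE 0.10) and Ndufs7 by -0.33 (SE 0.12), none of them called by edgeR.

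Complex II, the succinate dehydrogenase of the citric acid cycle, had the median closest to 0 of the 5 complexes, a difference between complexes that was not tested. Its 4 subunits had a median log2 fold change of -0.09. Sdhb, the iron-sulfur subunit, had 152, 116, 134 and 129 CPM in Veh and 114, 113, 113 and 109.9 in ISP, without overlap, at -0.24 (SE 0.08, adjusted p = 0.271). Sdha ranged from 360.2 to 428 CPM in Veh and from 339.8 to 432 in ISP, at -0.04 (SE 0.09). The membrane anchor Sdhd was level, at 0.02 (SE 0.09). Of the assembly factors that the pattern took, Sdhaf1, Sdhaf3 and Sdhaf4 lay below 0 and Sdhaf2 at 0.04 (SE 0.10).

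Complex III had 8 subunits below 0 of 8, with a median of -0.19. Its small subunits Uqcrq (-0.29, SE 0.10), Uqcr11 (-0.23, SE 0.09) and Uqcrh (-0.18, SE 0.07) did not overlap between the groups. For Uqcr11 the groups nearly touched, at 64.44 CPM in ISP 14 and 64.47 in Veh 10, and annotated near-copies cover 38.4% of its transcript. Uqcrc1, the larger core protein, had 372, 323, 336 and 289 CPM in Veh and 308, 272, 301 and 278 in ISP, which overlapped, at -0.19 (SE 0.09). The Rieske iron-sulfur protein Uqcrfs1 differed by -0.15 (SE 0.09).

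In complex IV all 12 constitutive subunits had lower means in ISP, with a median log2 fold change of -0.22. Cox4i1, which takes part in the regulation of the complex by ATP, had 679, 541, 530.1 and 499 CPM in Veh and 471, 444, 455 and 431 in ISP. The groups did not overlap, and Veh 2 was far above the others. The log2 fold change of Cox4i1 was -0.32 with all libraries (SE 0.10, adjusted p = 0.263 in edgeR and 0.0663 in DESeq2) and -0.22 without Veh 2. Cox6b1, which lies where the monomers of the complex IV dimer meet, had 171, 156, 153 and 145 CPM in Veh and 131, 137, 122 and 126 in ISP (-0.28, SE 0.07, adjusted p = 0.261 in edgeR and 0.0482 in DESeq2). Cox8a had 582, 418, 442 and 443 CPM in Veh and 392, 399, 397 and 393 in ISP. The ISP libraries were almost equal (395 ± 3.41 CPM, SD, n = 4), Veh 2 was far above its group, and the log2 fold change was -0.25 (SE 0.10). Cox5a, at -0.18 (SE 0.08), and Ndufa4, first assigned to complex I and now to complex IV, at -0.20 (SE 0.09), were among the smaller differences.

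In the ATP synthase all 17 tested subunits lay below 0. The 5 F1 subunits had a median of -0.17 and the 12 Fo and stalk subunits a median of -0.23. Atp5d, the delta subunit of the central stalk in F1, had 274, 232, 248 and 234 CPM in Veh and 207, 208, 209 and 191 in ISP (-0.28, SE 0.07, adjusted p = 0.261 in edgeR and 0.0523 in DESeq2). Atp5md, a small membrane subunit, lay at -0.29 (SE 0.09), also without overlap. The catalytic Atp5b differed by -0.12 (SE 0.09) and Atp5a1 by -0.06 (SE 0.08). The 3 genes that encode the identical c subunit of the proton-carrying ring lay close together, Atp5g1 by -0.24 (SE 0.09), Atp5g2 by -0.27 (SE 0.09) and Atp5g3 by -0.25 (SE 0.09). Annotated near-copies cover 88.2% of the transcript of Atp5g2, so that its counts are uncertain. The same limit applies to other members with near-copies, such as Atp5k (56.6% of the transcript) and Atp5c1 (55.7%).

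**Figure D2:**
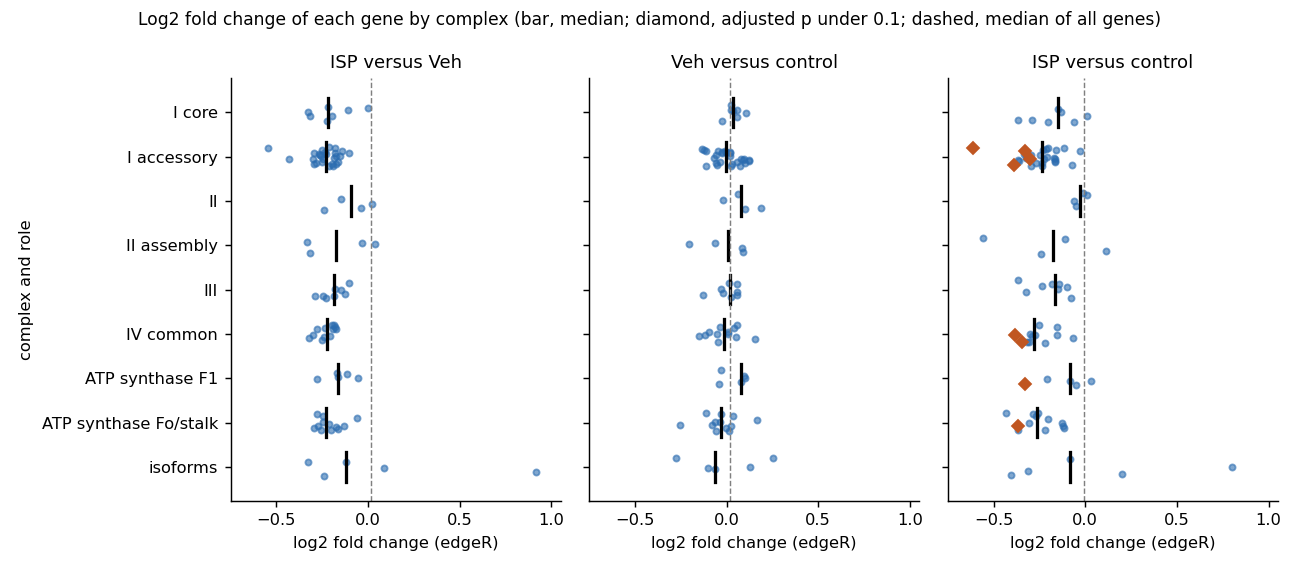
Log2 fold change of each tested member (x axis, edgeR) by complex and role (y axis) in the 3 comparisons, with a bar at the median of each role, diamonds for an adjusted p under 0.1 and a dashed line at the median of all genes. In ISP versus Veh all but 4 genes lie below 0, in Veh versus control the roles lie around 0, and the 8 diamonds are all in ISP versus control.

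The members are short, and fold changes of all genes varied with length. The principal transcript of the 84 tested members had a median length of 863 bp, against 2997 bp for all genes tested in ISP versus Veh, and 57 of the 84 lay in the shortest of 10 length classes of equal size. In that class, which ends at 1210 bp, the 1451 other genes had a median log2 fold change of -0.14 in ISP versus Veh and the members -0.22. In the longest class the other genes had a median of 0.07. GC content showed a trend as well, from 0.08 in the class lowest in GC to -0.12 in the class highest in GC, but the members had a median GC content of 50.1%, near that of all genes (49.6%). Among the members themselves the log2 fold change in ISP versus Veh had almost no correlation with length (Pearson's r = -0.00, Spearman's rho = 0.06). The 84 genes share the same 8 libraries. Their medians were -0.22 in the shortest class, -0.02 between 2552 and 2997 bp (4 members) and -0.24 between 4134 and 4924 bp (3 members). Across the same genes Pearson's r with GC content was -0.04 and Spearman's rho -0.29, lower values lying with higher GC. With length, Spearman's rho was 0.36 in Veh versus control and 0.27 in ISP versus control.

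**Figure D3:**
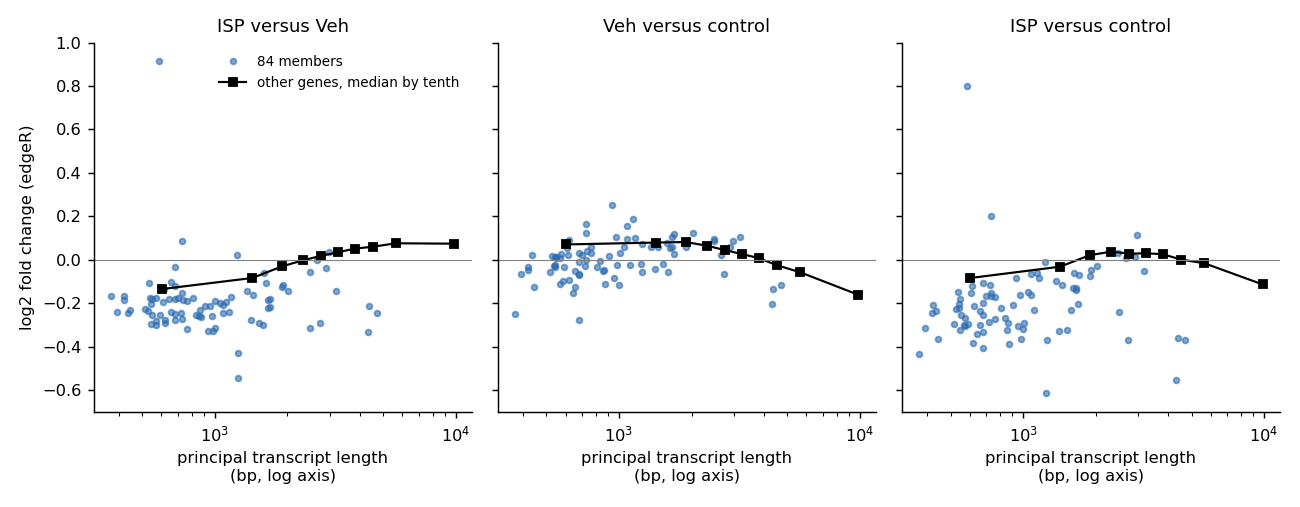
Log2 fold change (y axis) against the length of the principal transcript (x axis, log scale) for the 84 tested members (points), with the median of the other genes in each of 10 length classes (squares). In ISP versus Veh the squares climb from -0.14 to 0.07, and most members lie below them.

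When the loess trend of each library with gene length was removed, the median of the members in ISP versus Veh went from -0.21 to -0.10, and removing the GC trend alone left it at -0.21. With both trends removed it was -0.11, 68 of the 84 lay below 0, and 17 had an unadjusted p under 0.05 and were lower, against 5.7% of all genes. With the length of the principal transcript in place of all exons, the median was -0.07, 66 lay below 0 and 7 passed an unadjusted p under 0.05, against 5.34% of all genes. Ndufc1 kept most of its difference (-0.47 with both trends removed), and Ndufa13 went from -0.43 to -0.20, Cox6b1 from -0.28 to -0.08 and Cox8a from -0.25 to 0.01. The correction removes any difference between the groups that follows length, whatever its source, and the source was not tested.

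Libraries of 1 group differed in the same measure. In the shortest length class of all genes Veh 2 (0.21) and control 19 (0.19) had the highest medians, as they did for the members, and control 21 (-0.17) the lowest. ISP 18, where the members were lowest, was near 0 there (-0.02). With both trends removed, the members' medians were -0.02, -0.07, -0.06 and -0.18 in ISP and 0.11, 0.02, 0.04 and -0.05 in Veh. ISP 12 then lay above Veh 10, and ISP 18 was the lowest. Without ISP 18 the median log2 fold change with both trends removed was -0.06, and without Veh 2 it was -0.09.

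**Figure D4:**
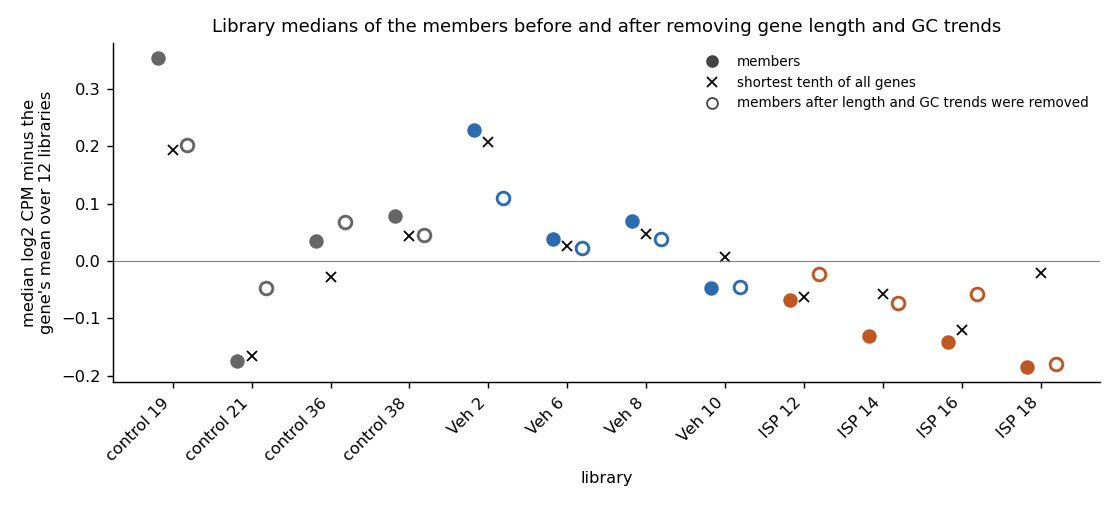
Median log2 CPM of the tested members in each library (y axis, minus each gene's mean over the 12 libraries), before (filled) and after (open) the gene length and GC trends were removed, with the shortest length class of all genes (crosses). Control 21 goes from -0.17 to -0.05 and Veh 2 from 0.23 to 0.11, while ISP 18 stays at -0.18.

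Markers of cell types were read in the same groups. In ISP versus Veh edgeR called none of them, as it called no gene. The median log2 fold change was 1.00 for microglia and macrophage markers, 0.78 for oligodendrocyte, 0.17 for astrocyte and -0.08 for neuron markers. At an unadjusted edgeR p under 0.05, 8 of 10 microglia, 7 of 10 oligodendrocyte and 2 of 10 astrocyte markers were higher. Of the 14 neuron markers 3 were lower and 1 higher. The summed level of 10 microglia and macrophage markers was 372 to 685 CPM in Veh and 432 to 1549 in ISP, with all 10 above 0 in log2 fold change. ISP 14 and ISP 18, at 1549 and 1431 CPM, lay above Veh, while ISP 12 and ISP 16 lay within its range. The sum of 10 oligodendrocyte markers was 2996 to 7455 CPM in Veh and 5042 to 12062 in ISP, also with 10 of 10 above 0. The sum of 14 neuron markers was 13987 to 15941 CPM in Veh and 12257 to 14731 in ISP, with 9 of 14 below 0. For 10 astrocyte markers it was 4254 to 5850 and 4744 to 7047 CPM. Endothelial and pericyte markers summed to 396 to 486 CPM in Veh and 367 to 422 in ISP, muscle markers to 24.3 to 33.1 and 18.5 to 24.3, and blood markers to 1.27 to 6.93 and 3.96 to 20.02, with the hemoglobin genes at 0 in every library. The part of these cells in the members' values was not tested. With Veh 6 and ISP 18 both left out, the members' median was -0.20, and 77 of 84 lay below 0. Without these libraries DESeq2 called 10 members, all lower, and the share of all genes called lower is not given here. By complex the medians were then -0.20 for the core and -0.22 for the accessory subunits of complex I, -0.07 for complex II, -0.18 for complex III, -0.23 for complex IV, -0.14 for F1 and -0.24 for Fo and the stalk.

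In Veh compared with control, no difference in these genes was detected. Of the 84 tested, 44 lay above 0 and 40 below, with a median log2 fold change of 0.01 against 0.02 for all genes. No member was called by edgeR, DESeq2 or limma-voom, while edgeR called 2.23% of all genes. At an unadjusted p under 0.05 there were 0 members against 16.3% of all genes. Atp5a1 had 849, 858, 876 and 841 CPM in control and 949, 906, 948 and 839 in Veh, which overlapped, at a log2 fold change of 0.10 (SE 0.06). Sdhb, at 0.19 (SE 0.11), and Cox7a2l, a supercomplex factor, at 0.16 (SE 0.09), had the smallest p-values of those above 0, followed by Ndufa10 (0.12, SE 0.08). Below 0, Cox6a2 lay at -0.28 (SE 0.19), Atp5k at -0.25 (SE 0.18), Cox5a at -0.15 (SE 0.11) and Cox7b at -0.12 (SE 0.10). Ndufs4 (0.12, SE 0.09) and Atp5c1 (0.10, SE 0.09), the gamma subunit of the rotor, lay above 0.

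The control libraries had the widest spread. The members' medians were 0.35 in control 19, -0.17 in control 21, 0.03 in control 36 and 0.08 in control 38, a spread of 0.22 (SD, n = 4) against 0.12 in Veh and 0.05 in ISP. Cox4i1 had 647, 416, 524 and 584 CPM in these libraries. Without control 19 the median of Veh versus control was 0.09, with 72 of the 84 above 0, and without control 21 it was -0.08, with 64 below 0. Without Veh 2 it was -0.05. The direction thus changed with the library left out.

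In ISP compared with control, 8 members fell, 78 of the 84 tested lay below 0, and the median was -0.22 against -0.01 for all genes. Lower calls made up 3.42% of all 15232 genes tested. The 8 were the complex I subunits Ndufc1, Ndufa5, Ndufa11 and Ndufs6, the complex IV subunits Cox5a and Cox6b1, and the ATP synthase subunits Atp5d and Atp5g1. Ndufc1 had 46.5, 31.8, 36.5 and 36.1 CPM in control, and all 4 ISP libraries, at 22.6 to 26.9, were lower. Its log2 fold change was -0.61 (SE 0.12, adjusted p = 0.0275), and its adjusted p was under 0.1 in every alternative run for this comparison, 0.0792 at most.

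Ndufa11, a membrane subunit whose window holds the NRF1 motif shown above, had 103, 70.8, 85.3 and 84.4 CPM in control, 106, 81.1, 77.2 and 73.3 in Veh and 67.2, 69.0, 68.2 and 70.5 in ISP. All ISP libraries lay below all others, although control 21 was only just above them (-0.33 against control, SE 0.11, adjusted p = 0.0985). Ndufs6, a zinc-binding subunit, had 44.5, 34.7, 40.1 and 41.1 CPM in control, 36.4, 39.1, 37.7 and 34.3 in Veh and 34.2, 32.02, 34.02 and 30.4 in ISP. It was called against control (-0.30, SE 0.10, adjusted p = 0.0953), with ISP again below all other libraries, and a near-copy, Ndufs6b, covers 61.3% of its transcript. Cox6b1 had 208, 133, 168 and 162 CPM in control, and control 21 lay within the range of ISP (-0.39, SE 0.12, adjusted p = 0.0842). Of the 84 tested members, Ndufc1, Ndufa11 and Ndufs6 were the 3 whose ISP values did not overlap control. The share of all genes without overlap in this comparison is not given here, so the count cannot be judged against it.

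The number of calls against control depended on single libraries. Without control 19 Ndufc1 alone was called and the median was -0.13 (1.99% of all genes called lower), and without control 21 there were 30 calls and a median of -0.32 (4.24% of all genes). Leaving out control 36, control 38, ISP 14 or ISP 18 left 1 call each, and the shares of all genes in these runs are not given here. With the length and GC trends removed 15 members were called, all lower, at a median of -0.16 (3.95% of all genes). Of the same lists of markers, 9 of 10 for microglia, 8 of 10 for oligodendrocytes and 5 of 10 for astrocytes were called higher in ISP. Of the 14 neuron markers 13 lay below 0, at a median of -0.16, and 1, Sst, was called lower. The part of these cells was not tested.

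Tissue-restricted isoforms replace constitutive subunits in heart, muscle, lung or testis. Cox6b2, known from testis, had the highest log2 fold change of all members in ISP versus Veh, 0.91 (SE 0.69, adjusted p = 0.537). Its counts were 6, 52, 10 and 14 in Veh and 10, 36, 20 and 112 in ISP, so that Veh 6 and ISP 18, the libraries with choroid plexus transcripts, were the highest of each group. Without ISP 18 the log2 fold change of Cox6b2 was 0.13, without Veh 6 it was 1.78, and without both 1.00 (edgeR adjusted p = 0.438). Cox8b, known from heart and skeletal muscle, had 46 counts in Veh 6 and 24 in ISP 18 and 0 to 6 in the other 10 libraries, while muscle markers stood at 24.3 and 20.7 CPM in those libraries, within the range of the others. Its constitutive partner Cox8a was not high in either. Cox4i2, the lung isoform, was at 2.49, 1.45, 1.497 and 1.93 CPM in Veh and 1.96, 1.81, 2.12 and 1.90 in ISP, at 0.08 (SE 0.30) beside -0.32 for Cox4i1. For the other pairs the values of ISP versus Veh were -0.12 (SE 0.23) for Cox6a2 and -0.30 (SE 0.11) for Cox6a1, -0.24 (SE 0.36) for Cox7a1 and -0.24 (SE 0.10) for Cox7a2, and -0.33 (SE 0.24) for Ndufa4l2 beside -0.20 for Ndufa4. None of these isoforms was called, and their low counts leave wide errors.

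**Figure D5:**
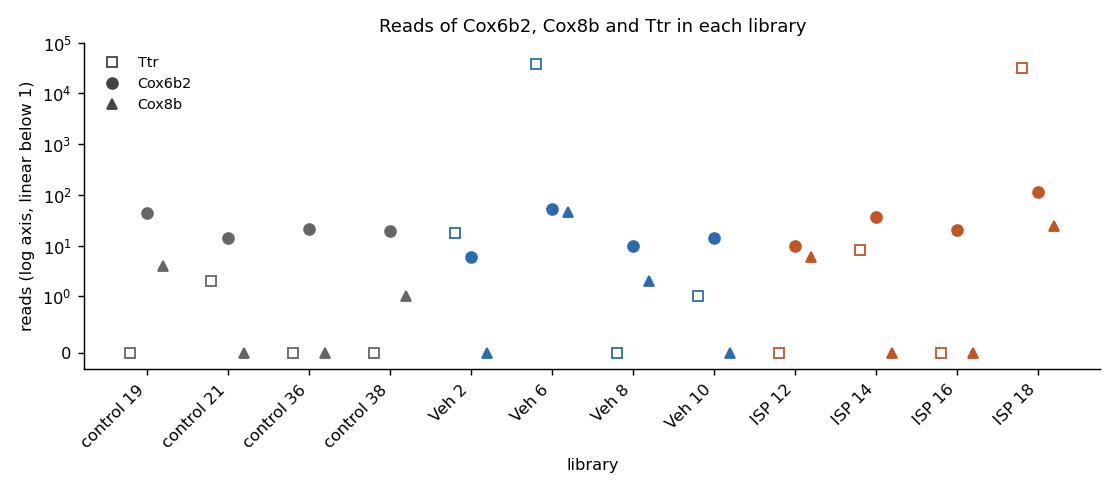
Counts of Cox6b2, Cox8b and the choroid plexus transcript Ttr in each library (y axis, log scale that is linear below 1). Veh 6 and ISP 18 have 38337 and 30986 counts of Ttr, 46 and 24 of Cox8b and 52 and 112 of Cox6b2.

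Other genes of the mitochondrion were read from lists. Cyc1, the cytochrome of complex III, differed by -0.24 (SE 0.09) in ISP versus Veh, Ndufab1, the acyl carrier protein of complex I, by -0.18 (SE 0.08), and all 3 of the genes the pattern missed lay below 0. Of 39 tested assembly factors 25 lay below 0, at a median of -0.09, with Ndufaf3 (-0.37, SE 0.10) and Coa3 (-0.28, SE 0.10) first by p-value. Of 78 mitochondrial ribosomal proteins 64 lay below 0, at a median of -0.16, with Mrps10 at -0.35 (SE 0.09) and Mrpl2 at -0.46 (SE 0.13). Carriers and pores had 12 of 13 below 0, at -0.09, with Mpc2, a subunit of the pyruvate carrier, at -0.25 (SE 0.10) and Vdac1, the main pore of the outer membrane, at -0.16 (SE 0.07). Citric acid cycle and pyruvate dehydrogenase genes had 11 of 17 below 0, at -0.03, with Idh3b at -0.21 (SE 0.08) and Mdh2 at -0.18 (SE 0.08). The 12 regulators of mitochondrial biogenesis had a median of 0.00, with Pprc1 at 0.21 (SE 0.10) and Tfb1m at -0.26 (SE 0.19). None of these genes was called by edgeR in ISP versus Veh. With the length and GC trends removed, the median went to -0.07 for the mitochondrial ribosomal proteins (59 of 78 below 0), to -0.02 for the assembly factors (24 of 39) and to -0.04 for the regulators (7 of 12). That of the citric acid cycle genes went away from 0, to -0.08 (14 of 17).

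Against control, Mrpl4 (-0.38, SE 0.10, edgeR adjusted p = 0.0566) and Mrpl57 (-0.38, SE 0.11, edgeR adjusted p = 0.0753) of the mitochondrial ribosome fell in ISP. Suclg2, the GTP-forming succinyl-CoA synthetase subunit, rose in ISP (0.66, SE 0.13, edgeR adjusted p = 0.0269). In Veh against control Suclg2 was also above 0, at 0.53 (SE 0.14), and was not called. Cycs, at -0.26 (SE 0.09), and Cyc1, at -0.28 (SE 0.10), were not called in ISP against control. Ppargc1b and Ppargc1a, the coactivators that drive mitochondrial biogenesis, were at -0.28 (SE 0.10) and -0.25 (SE 0.11) in ISP against control and at -0.28 (SE 0.11) and -0.26 (SE 0.10) in Veh against control, comparisons that share the control libraries, and were called in neither. The first by p-value of the assembly factors in Veh versus control was Ttc19, at -0.19 (SE 0.08), and of the carriers Ucp2, at 0.43 (SE 0.25) in Veh and 1.19 (SE 0.46) in ISP against control, neither called.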

How the data were processed

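Poly(A) RNA from micropunched mouse cortex was sequenced in 12 libraries. Per the labels it was fragmented, primed with random hexamers and size selected, so counts of short mRNAs can depend on fragment size. The authors' notes name HISAT2, HTSeq, DESeq2 and mm10, with no versions known here. The deposited table holds unnormalized read counts per gene, and directions follow its column names (ISP minus Veh).

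Each comparison used only the libraries of its own groups, in edgeR 4.0.16 under R 4.3.3: filterByExpr, TMM factors, the quasi-likelihood test, and a call at a Benjamini-Hochberg adjusted p under 0.1. The SE is the size of the log2 fold change over the root of F. Alternatives were DESeq2 1.42.0, limma 3.58.1 voom, other scalings and filters, left-out libraries, and loess trends (span 0.3) in length and GC content from GENCODE M21, known for 99.1% of tested genes and every tested member. The fits were tested on simulated data. The 18 pairs of libraries within a group differed beyond sampling noise (chi-square per degree of freedom 11.1 to 50.9). No batch is labelled, and p-values measure the spread between the samples.

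The members and gene lists were chosen with earlier results of these data known. Members are named by a rule: per comparison the 8 smallest p in each direction, a set of central subunits and the isoform pairs, and the 2 smallest p of each other list. One member that the rule names is not reported here. Ndufs7, Ndufs8, Uqcrq, Uqcr11, Uqcrh, Sdhaf1 and Sdhaf4 were added as examples after their values were seen.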

Additional observations from a re-analysis of the deposited data

Results flagged for a closer look

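Of 132 groups of 4 libraries examined, 10 held a library whose gap to the nearest other was large against the range of the group. Chance flags about 5% of groups. In Veh 2, Cox8a stood at 581.8 CPM, with the others at 418.3 to 442.6, and Ndufa4 at 251.5 CPM, with the others at 198.3 to 206.8. Sdhd was low in Veh 10, at 67.3 CPM against 76.68 to 78.58. In control 19, Atp5k stood at 48.78 CPM against 29.81 to 31.47 and Sdhaf2 at 43.46 CPM against 35.01 to 36.06. In ISP 18, Atp5d was low at 191.1 CPM against 207.5 to 208.8, and Atp5md at 104.9 CPM against 122.1 to 123.8. In ISP 12, Cox7a2l was low at 120.2 CPM against 130.9 to 132.6, and Sdhaf3 high at 6.853 CPM against 3.378 to 3.781. Cox7a1 was high in ISP 16, at 1.544 CPM against 1.288 to 1.315.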

How the results depend on the processing

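The members called in ISP versus Veh numbered 0 in edgeR whichever library was left out (0 to 0), 5 in DESeq2 and 10 in DESeq2 without Veh 6 and ISP 18. The 5 calls of DESeq2 became 0 without Veh 2 or Veh 8 and 21 without Veh 10. Of all genes, DESeq2 called 402, edgeR without Veh 6 and ISP 18 called 31, DESeq2 without both 552, and edgeR with 1 library left out 0 to 72. The members' median of -0.21 was -0.10 with the length trend removed, -0.11 with length and GC, -0.072 with principal transcript length and GC, and -0.25 to -0.16 with 1 library left out. With length and GC removed it was -0.13 to -0.06 on leaving out 1 library. In Veh versus control no alternative run called a member (0 to 0 with 1 library left out), and the median, 0.01 with all libraries, changed sign, at -0.08 to 0.09 with 1 library left out and -0.06 with length and GC removed. Its 337 genes called became 18 at an adjusted p under 0.05, 180 without scaling factors, 510 without a filter, 1109 in DESeq2, 28 with all 12 libraries in 1 fit, 195 without control 19 and the trends, 1311 without control 19 in DESeq2, and 0 to 461 with 1 library left out. In ISP versus control the 1547 genes called became 691 at an adjusted p under 0.05, 838 without control 19 and the trends, and 420 to 2283 with 1 library left out. The 8 members became 1 at an adjusted p under 0.05, 4 with upper-quartile factors, 2 without scaling factors, 3 with at least 10 counts in every library, 18 in DESeq2, 15 without the trends, 1 without control 19 and the trends, 1 without control 19 in DESeq2, and 1 to 30 with 1 library left out, at medians of -0.32 to -0.13. Shares of all genes called lower against control are given above only for all libraries, without control 19 or control 21, and without the trends. No called member changed sign, and beyond fewer libraries the causes were not tested. No paired analysis was possible because the groups share no replicate numbers. Short or low isoforms such as Cox4i2 and Cox7a1, near 2 CPM or less, are limited by depth.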

Other observations

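Other large complexes with short mRNAs were read in the same fits. Of 79 tested cytosolic ribosomal protein genes, 71 lay below 0 in ISP versus Veh, at a median log2 fold change of -0.15, and 3 lay below 0 in Veh versus control, at a median of 0.15. Rps21 (-0.38, SE 0.09) and Rpl38 (-0.32, SE 0.09) had the smallest p-values in ISP versus Veh, and none was called by edgeR. With the length and GC trends removed, 52 of the 79 lay below 0 in ISP versus Veh, at a median of -0.05, and 0 had an unadjusted p under 0.05 and were lower, against 15 before, while the median of Veh versus control was 0.07. Of 37 proteasome subunits, 28 lay below 0 in ISP versus Veh, at a median of -0.11, with Psmb5 at -0.26 (SE 0.09), and 25 lay below 0 with the trends removed, at a median of -0.05. In ISP versus control the immunoproteasome subunits Psmb9 (2.16, SE 0.44, edgeR adjusted p = 0.0275) and Psmb8 (2.30, SE 0.56, edgeR adjusted p = 0.0410) rose. Psmb8 stood at 21.2 and 18.1 CPM in ISP 14 and ISP 18. In ISP 12 and ISP 16 it stood at 3.81 and 2.90, within the range of Veh (1.63 to 7.97). In Veh versus control Psmb9 lay at 1.29 (SE 0.43) and Psmb8 at 0.96 (SE 0.41), neither called. The summed microglia and macrophage markers were 432 to 1549 CPM in ISP and 274 to 370.3 in control, and their part in these values was not tested.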
